A study of Mus musculus with 2 samples.

Results

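Lipoprotein lipase (LPL) and 7 partners that act around it were followed through the endothelial and stromal cells of mouse long bone. The members were taken by name, as the gene rows Lpl, Gpihbp1, Angptl4, Lipg, Cd36, Fabp4, Fabp5 and Lmf1. All 8 of them were listed in both count tables, among 28380 gene symbols. Cells entered when 500 to 6000 genes were detected and mitochondrial counts stayed under 25%.

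LPL cuts the triglycerides of circulating lipoproteins, but capillary endothelium does not have to make the enzyme itself. Parenchymal and stromal cells produce it with the help of the folding factor LMF1, and the endothelial protein GPIHBP1 then carries it across the capillary wall and holds it on the luminal face. ANGPTL4 inactivates LPL, endothelial lipase (Lipg) acts mainly on phospholipids of high-density lipoprotein, CD36 takes up long-chain fatty acids at the cell surface, and FABP4 and FABP5 bind them in the cytosol. In bone marrow, fatty acids reach haematopoietic cells, stromal cells and bone-forming cells through sinusoids and other capillaries.

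The data were single-cell transcriptomes of lineage-, CD45- and CD117-depleted cells from femur and tibia of C57BL/6 mice of both sexes at postnatal day 30, all given tamoxifen. There were 2 libraries, 1 Control and 1 Dach1OE, and each pooled 2 mice. The comparison asks what Dach1, a transcription factor, does when switched on in Aplnr-expressing endothelium, since the Dach1OE mice (labelled Apj CreERT2 - Dach1OE +/f) carried a Dach1 transgene in the Rosa26 locus together with a tamoxifen-inducible Cre under Aplnr (Apj). The Control label, Dach1OE +/f, names the transgene and no Cre, and by the methods controls were littermates lacking Cre. The study's scheme draws them differently. With 1 library per group there was no replicate library and no test. Levels are unique molecular identifiers (UMIs) per 1000000 UMIs of a cell type (CPM), differences are log2 ratios of Dach1OE over Control, and the 95% intervals in parentheses cover counting error only.

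Fabp4 and Fabp5 are paralogs that lie close to each other on chromosome 3 and are read side by side here. The stretch below shows how far their coding sequences differ there. Where the reads fell along the transcripts was not examined. Over the aligned coding sequences of 399 and 408 bases, 248 of 408 columns (60.8%) were identical, and the longest run of identical bases was 12. The stretch covers bases 14 to 73 of the Fabp4 coding sequence and bases 20 to 79 of the Fabp5 one, and capitals mark the 26 of 60 positions at which they differ.
Fabp4: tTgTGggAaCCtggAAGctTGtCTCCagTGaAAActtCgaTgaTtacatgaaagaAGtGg
Fabp5: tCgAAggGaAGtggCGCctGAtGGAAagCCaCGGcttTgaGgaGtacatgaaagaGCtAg
Fabp5 also has an annotated processed pseudogene, Fabp5l2, so part of its reads could have been placed elsewhere.

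Among the promoters in the RefSeq table, that of Cd36 is shown because Cd36 differed most between the libraries in the endothelium. The window holds the 250 bases before one transcript start, which lies inside the gene's annotated span and downstream of its 5′ end (GRCm38.p6, chr5:17835897-17836146, minus strand, written 5′ to 3′ as transcribed), and capitals mark its one match to the nuclear receptor half-site AGGTCA, on the reverse strand.
Cd36: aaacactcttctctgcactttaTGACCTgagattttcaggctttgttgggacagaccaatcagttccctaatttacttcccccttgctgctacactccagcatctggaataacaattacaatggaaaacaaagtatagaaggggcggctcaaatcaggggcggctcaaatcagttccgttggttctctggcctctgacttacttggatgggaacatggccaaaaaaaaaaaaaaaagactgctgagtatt
The match begins 228 bases before the start, and 14.0% of 32851 promoters of this length hold the motif on either strand. The window held no TATA box TATAAA, which 12.4% of the promoters hold, and no E-box CACGTG (6.02%). It also held no ACGTG, the only sequence searched for the core hypoxia response element (16.6%, and part of the E-box). The promoter of Lmf1, the other member with an entry, held none of these 4 sequences, and other forms of the elements were not searched. The remaining 6 members had no entry.

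On GRCm38 with the GENCODE annotation, Lpl spans chr8:68880491-68907448 on the plus strand, Gpihbp1 chr15:75596628-75599481 on the plus strand and Lmf1 chr17:25579085-25662826 on the plus strand. Angptl4 lies at chr17:33773750-33781830 on the minus strand and Lipg at chr18:74939322-74961263 on the minus strand. Cd36 covers chr5:17781690-17888801 on the minus strand, Fabp4 chr3:10204088-10208576 on the minus strand and Fabp5 chr3:10012548-10016607 on the plus strand. None of the 8 overlaps another annotated gene.

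The Control library held 28720 cells with 143986818 UMIs and the Dach1OE library 32028 cells with 166999989 UMIs, of which 26466 and 29317 cells passed the filters at medians of 3793.5 and 4055 UMIs. The libraries shared 1049 cell indices. Clusters were named after the types their markers resemble, and the cells of 2 classes were divided further. Endothelial cells (ECs; 8783 Control and 9284 Dach1OE) comprised bone marrow sinusoidal bmECs, metaphyseal mpECs, arterial aECs, remodelling-associated rECs, proliferating pECs, a few lymphatic ECs and an unnamed cluster led by Scgb3a1 and Dach1. Bone mesenchymal stromal cells (BMSCs; 5652 and 4621) comprised diaphyseal dpMSCs, metaphyseal mpMSCs, osteoblasts (OBs), osteocytes (OCYs), septoclasts (SCs) and proliferating pBMSCs. The members were not among the genes used for clustering. Dach1 itself was at 5.12 CPM in Control and 206 CPM in Dach1OE ECs. The make-up of both classes differed between the libraries, which bears on every pooled value. Among ECs, bmECs took 62.6% in Control and 18.6% in Dach1OE, and the Scgb3a1-led cluster took 3.59% and 36.2%. Among BMSCs, dpMSCs took 43.7% and 21.8%, and OBs 27.6% and 46.0%. The Scgb3a1-led ECs of Control were shallow, at a median of 1035 UMIs against 2180 in Dach1OE.

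Lpl was above all a transcript of dpMSCs, the stromal cells around sinusoids that also carry Adipoq and Lepr. dpMSCs of Control had 13187 CPM and those of Dach1OE 10763 CPM. Of all Lpl UMIs in kept cells, dpMSCs held 70.6% in Control and 50.4% in Dach1OE, while all ECs together held 5.48% and 8.26%. SCs, the matrix-resorbing perivascular cells of the growth plate front, came next at 1814 and 2704 CPM. Smooth muscle cells or pericytes followed at 1155 and 1089 CPM, and pBMSCs at 729 and 728 CPM. The first 3 of these did not overlap with their neighbours in the order. The place of pBMSCs rested on 5 cells in each library, without which their level was 331 and 212 CPM, beside 337 and 219 CPM in fibroblasts without their own 5 highest cells. Among ECs, Lpl was highest in bmECs (317 and 283 CPM) and in the Scgb3a1-led cluster (266 and 288 CPM), next to fibroblasts at 409 and 269 CPM, and these overlapped each other. It was lowest in OBs, at 12.2 and 12.5 CPM.

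The adipocyte markers of dpMSCs gave a scale for Lpl in other cells. Taken as a percentage of the dpMSC level, the summed adipocyte marker list, which was mostly Adipoq, stood at 0.232% in Control chondrocytes and 0.106% in Dach1OE chondrocytes, and Lpl stood there at 0.306% and 0.245%. OBs likewise had the list at 0.114% and 0.0881% and Lpl at 0.0925% and 0.116%. The part of free dpMSC RNA in these values was not tested. In bmECs the list was at 0.309% and 0.177% of the dpMSC level and Lpl at 2.40% and 2.63%. In smooth muscle cells or pericytes the list was at 0.534% and 0.161% and Lpl at 8.76% and 10.1%. In SCs the list was at 2.04% and 0.779% and Lpl at 13.8% and 25.1%. In these 3 cell types Lpl thus stood several-fold above the level of the dpMSC list.

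dpMSCs were not mature adipocytes by their markers. The lipid-droplet genes Cidec and Plin1 had 1 and 9 UMIs over all Control dpMSCs and 10 and 25 UMIs over all Dach1OE dpMSCs, whereas Adipoq was at 7251.5 and 6270.6 CPM.

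Gpihbp1, the anchor that brings LPL to the capillary lumen, showed the opposite distribution. ECs held 81.7% of its UMIs in Control and 81.8% in Dach1OE, and BMSCs held 0.625% and 0.610%. Its highest levels were in mpECs (699 and 1009 CPM), the Scgb3a1-led ECs (563 and 1005 CPM) and pECs (605 and 871 CPM), followed by bmECs (529 and 659 CPM), and each of these overlapped its neighbour. aECs had 273 and 462 CPM, and rECs 91.1 and 492 CPM. In chondrocytes, which should lack it, Gpihbp1 stood at 1.37% of the EC level in both libraries, beside 1.27% and 1.40% for the summed EC markers.

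Lipg, the phospholipase made by endothelium, was narrower still. In bmECs it was at 683 CPM in Control and 442 CPM in Dach1OE, and in the Scgb3a1-led cluster at 427 and 345 CPM. pECs had 146 and 65.5 CPM, while mpECs had 20.8 and 10.4 CPM. Of all Lipg UMIs, bmECs and the Scgb3a1-led cluster held 76.0% and 0.984% in Control, and 32.7% and 38.0% in Dach1OE. Chondrocytes had 13.9 and 12.4 CPM, or 2.96% and 6.10% of the EC level, which was above the 1.27% and 1.40% of the EC marker list.

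Angptl4, the secreted inhibitor of LPL, was found in both compartments. It was at 184 and 118 CPM in bmECs, 179 and 114 CPM in the Scgb3a1-led ECs, 134 and 91.5 CPM in dpMSCs and 99.1 and 41.5 CPM in SCs, and each of these overlapped its neighbour. Levels were 66.2 and 18.7 CPM in mpMSCs, 20.2 and 14.0 CPM in mpECs, and under 10 CPM in aECs, OBs, OCYs and chondrocytes of both libraries.

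Cd36, the surface fatty acid translocase, and Fabp4, the cytosolic binding protein of capillary endothelium and fat, ran in parallel across cell types. Cd36 was highest in rECs of Control (1332 CPM) and in bmECs of Dach1OE (700.5 CPM), with 1117 CPM in Control bmECs and 536 CPM in Dach1OE rECs. Fabp4 was highest in the same pair of subtypes, at 9737 and 6342 CPM in rECs and 9141 and 7114 CPM in bmECs. Arterial and metaphyseal ECs had the lower endothelial levels of both. Cd36 was at 141 and 43.2 CPM in aECs and 137 and 41.2 CPM in mpECs, and Fabp4 at 1068 and 703 CPM and at 1518 and 1152 CPM. Smooth muscle cells or pericytes had 2058 and 1416 CPM of Fabp4, which was 29.0% and 36.1% of the EC level, and Cd36 stood there at 27.4% and 44.5%. The EC markers stood there at 14.0% and 14.2%, Gpihbp1 at 9.36% and 10.5% and Lipg at 11.1% and 9.79%, and the part of carried-over endothelial RNA in these values was not tested.

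Fabp5, the second binding protein, did not follow Fabp4. It was highest in SCs, at 1102 and 1413 CPM, and in rECs, at 1002 and 792 CPM. Smooth muscle cells or pericytes had 297 and 285 CPM, pBMSCs 121 and 294 CPM and erythroid cells 106 and 177 CPM, while bmECs, where Fabp4 was high, had 62.2 and 110.0 CPM. dpMSCs were at 19.1 and 18.1 CPM. Lmf1, which folds LPL in the endoplasmic reticulum, was low, from 5.04 CPM in Control OCYs to 26.3 CPM in Control dpMSCs. The largest share of its UMIs was in chondrocytes, 38.9% in Control and 44.3% in Dach1OE, at 26.1 and 25.7 CPM, beside 25.4 and 23.7 CPM in mpMSCs. Chondrocytes also held 39757878 of all 139955347 kept UMIs in Control and 52509313 of 162789363 in Dach1OE.

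**Figure D1:**
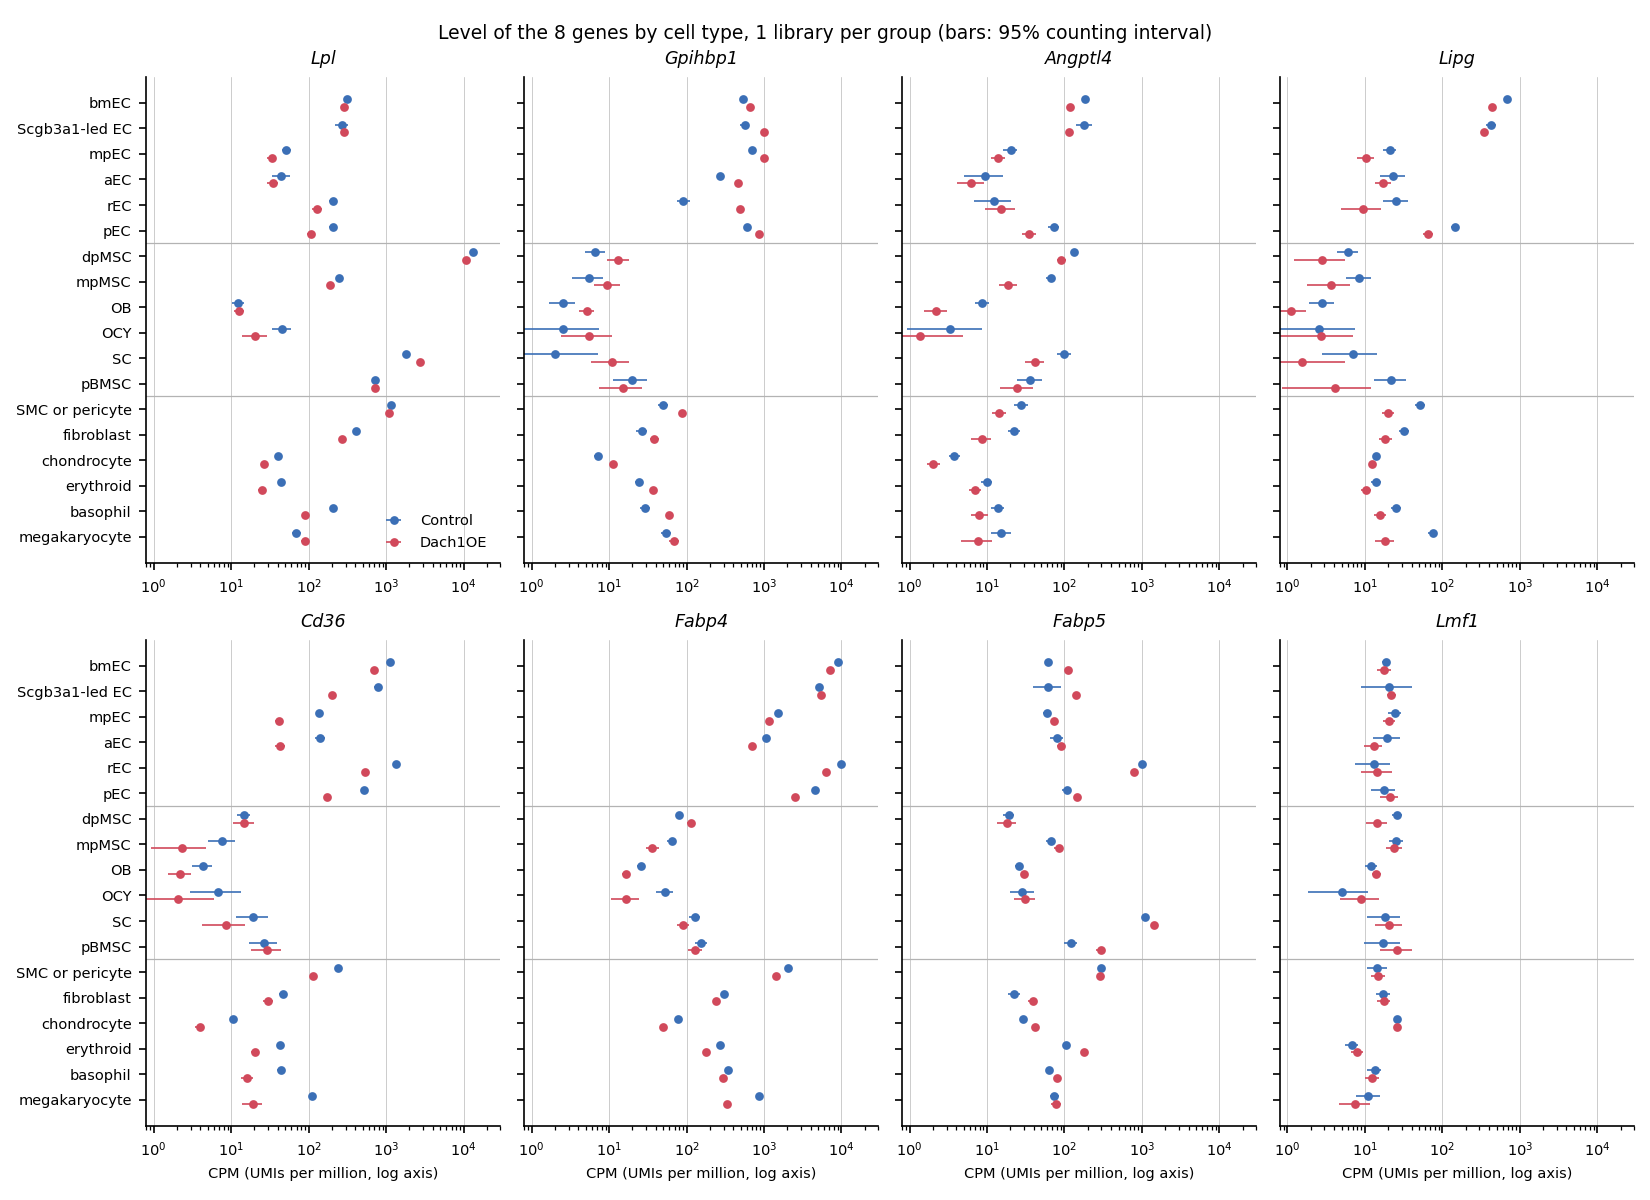
Levels of the 8 members by cell type, in CPM on a log axis, 1 panel per gene, with 1 point per library (Control, Dach1OE) and exact Poisson intervals as error bars. Lpl stands at 13187 and 10763 CPM in dpMSCs, Gpihbp1, Lipg, Cd36 and Fabp4 stand highest in ECs, and Fabp5 stands highest in SCs and rECs.

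Lpl and Fabp5 were also counted per cell at equal depth, with every cell thinned to 1000 UMIs. Lpl was seen in 98.8% of Control and 96.0% of Dach1OE dpMSCs (99.6% and 97.7% unthinned), against 2.81% and 1.95% of chondrocytes (18.7% and 15.1% unthinned), which should lack it. Medians of depth were 2671 and 2655 UMIs in dpMSCs and 11167 and 10395 UMIs in chondrocytes. Fabp5 was seen in 53.1% and 37.1% of thinned rECs (63.7% and 52.7% unthinned) and in 25.5% and 31.6% of thinned SCs (43.1% and 51.6% unthinned), against 2.87% and 3.45% of thinned chondrocytes (19.7% and 23.3% unthinned). Fabp5 was thus in more of the rECs in Control and in more of the SCs in Dach1OE, as its CPM was. Between these subtypes the shares went against the CPM, which was higher in SCs in both libraries, so no order was read from them. Thinning left out 38 Control and 23 Dach1OE dpMSCs, 20 and 14 rECs, 0 and 1 SCs and 0 chondrocytes.

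In ECs as a whole, Cd36, Fabp4, the lipases Lipg and Lpl and the LPL inhibitor Angptl4 were lower in Dach1OE, and the LPL anchor Gpihbp1 and Fabp5 were higher. Cd36 was at 867 CPM in Control and 256 CPM in Dach1OE, 3.39-fold lower (−1.76, interval −1.80 to −1.72). Lipg was at 471 and 203 CPM (−1.21, −1.26 to −1.17), Angptl4 at 133 and 65.7 CPM (−1.02, −1.10 to −0.94), Fabp4 at 7107 and 3923 CPM (−0.86, −0.87 to −0.85) and Lpl at 247 and 172 CPM (−0.53, −0.58 to −0.47). Gpihbp1 was at 528 and 818 CPM (0.63, 0.60 to 0.66) and Fabp5 at 105 and 143 CPM (0.44, 0.38 to 0.51). Lmf1 was at 19.3 and 18.9 CPM, a difference whose interval held 0 (−0.03, −0.20 to 0.14).

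All 8 members had a mean of at least 10 CPM in ECs and counted as measured. By a 2-fold limit, 0 of the 8 were higher, beside 1.93% of all 8912 genes measured, and 3 of the 8 were lower (Cd36, Lipg and Angptl4), beside 1.47% of all genes. The members' median was −0.69 and that of all genes 0.03. The pooled values carry the make-up of each library. With all EC subtypes given equal weight 1 member, Cd36, remained past 2-fold, at −1.26, beside 1.15% of all genes lower. At equal weights Gpihbp1 was at 0.70, Angptl4 at −0.66, Lipg at −0.58, Fabp4 at −0.43, Lpl at −0.32 and Fabp5 at −0.02. With the Scgb3a1-led cluster left out of the pool, 5 members were past 2-fold lower, beside 1.64% of all genes, Lpl (−1.02) and Fabp4 (−1.12) being the additional ones.

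Within subtypes, Cd36 was lower in Dach1OE in each of the 6 compared, and its interval lay below 0 in all 6. It was 4.01-fold lower in the Scgb3a1-led ECs (793 and 198 CPM, log2 interval −2.18 to −1.82), and at 137 and 41.2 CPM in mpECs (−1.74, −1.95 to −1.53), 141 and 43.2 CPM in aECs (−1.71, 195 and 187 UMIs) and 526 and 173 CPM in pECs (−1.61, −1.77 to −1.45). Of all genes measured, 9.29% were at least 2-fold lower in the Scgb3a1-led ECs, 1.28% in mpECs, 3.12% in aECs, 1.72% in pECs and 2.88% in rECs. rECs differed by −1.31 (−1.44 to −1.19) and bmECs, which hold most of the transcript, by −0.67 (−0.72 to −0.62). Smooth muscle cells or pericytes had more Cd36 than mpECs or aECs and were lower in Dach1OE too (237 and 114 CPM). The part of free RNA in the mpEC and aEC values was not tested. The cells compared in the Scgb3a1-led cluster were unlike: Scgb3a1 was at 20.5 CPM in its Control cells (8 UMIs, beside 18.4 CPM in Control bmECs) and 1081 CPM in its Dach1OE cells, Igfbp5 at 550 and 4235 CPM, and the sinusoidal receptor Stab2 at 1322 and 744 CPM. Every difference given for this cluster carries that limit. Seen per cell at 1000 UMIs, Cd36 was in 61.8% of Control and 46.0% of Dach1OE bmECs (85.5% and 72.4% unthinned), in 54.5% and 23.9% of rECs (67.4% and 36.6% unthinned) and in 1.26% and 0.576% of chondrocytes (6.37% and 2.67% unthinned). Median depths in bmECs were 2819 and 2932.5 UMIs, and in rECs 1903 and 2176.5 UMIs.

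Fabp4 was lower in 5 of the 6 subtypes, by smaller amounts: −0.87 (−0.91 to −0.82) in pECs, −0.62 (−0.66 to −0.58) in rECs, −0.60 (−0.69 to −0.51) in aECs, −0.40 (−0.45 to −0.35) in mpECs and −0.36 (−0.38 to −0.35) in bmECs. In the Scgb3a1-led ECs it was at 5203 and 5421 CPM, with an interval that held 0 (0.06, −0.00 to 0.12). These cells thus had about equal Fabp4 beside the lower Cd36, with 315 shallow cells on the Control side. Fabp4 was also lower in Dach1OE in the types outside both classes. It was at 2058 and 1416 CPM in smooth muscle cells or pericytes, 850 and 334 CPM in megakaryocytes and 344 and 296 CPM in basophils. Fibroblasts had 302 and 237 CPM, erythroid cells 271 and 177 CPM and chondrocytes 77.1 and 49.7 CPM. The part of free RNA in the mpEC and aEC values was not tested.

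Gpihbp1 was higher in Dach1OE in each of the 6 subtypes, with every interval above 0. The difference ran from 0.32 (0.26 to 0.37) in bmECs through 0.52 (0.42 to 0.63) in pECs, 0.53 (0.47 to 0.59) in mpECs, 0.76 (0.60 to 0.92) in aECs and 0.84 (0.64 to 1.04) in the Scgb3a1-led ECs to 2.43 (2.14 to 2.73) in rECs. In rECs this was 112 UMIs in Control and 685 UMIs in Dach1OE, or 91.1 and 492 CPM, 5.40-fold higher. Of all genes measured in rECs, 3.67% were at least 2-fold higher. Control rECs had the lowest Gpihbp1 of the 6 subtypes in that library, and Dach1OE rECs stood near the aECs of theirs. At 1000 UMIs per cell, Gpihbp1 was seen in 6.87% of Control and 32.9% of Dach1OE rECs (13.4% and 46.8% unthinned), against 0.718% and 1.21% of chondrocytes (5.37% and 6.95% unthinned). Gpihbp1 was also higher in Dach1OE in the types outside both classes. It was at 54.9 and 68.3 CPM in megakaryocytes, 49.5 and 86.1 CPM in smooth muscle cells or pericytes and 29.2 and 58.9 CPM in basophils. Fibroblasts had 26.3 and 38.3 CPM, erythroid cells 24.2 and 37.2 CPM and chondrocytes 7.24 and 11.2 CPM. The part of free RNA in these and in the EC subtype values was not tested.

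Lipg was lower in Dach1OE in all 6 subtypes, and its interval excluded 0 in 5. The subtypes with most of it, bmECs and the Scgb3a1-led ECs, differed by −0.63 (−0.69 to −0.57) and −0.31 (−0.53 to −0.07), and pECs by −1.16 (−1.44 to −0.88). The other 3 subtypes had Lipg at low levels, between 9.34 and 25.2 CPM, beside 13.9 and 12.4 CPM in chondrocytes. They differed by −1.01 (−1.48 to −0.54) in mpECs, −1.43 (−2.49 to −0.46) in rECs, on 31 and 13 UMIs, and −0.44 (−1.05 to 0.21) in aECs. Each pool held a female and a male mouse, whose cells were told by Xist or by Y-linked UMIs, and these differences were also taken within each sex, with no test between the sexes. In pECs Lipg differed by −0.27 (−0.76 to 0.23) in cells with Xist and −2.03 (−2.55 to −1.54) in cells with Y-linked UMIs, and in mpECs by −0.30 (−1.05 to 0.44) and −1.74 (−2.89 to −0.67). In the Scgb3a1-led ECs it differed by 0.05 and −0.24, and both intervals held 0.

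Angptl4 was lower in bmECs (−0.64, −0.76 to −0.52), mpECs (−0.52, −0.96 to −0.09), pECs (−1.06, −1.46 to −0.68) and the Scgb3a1-led ECs (−0.65, on 70 and 1009 UMIs). The mpEC value was −1.03 in cells with Xist and 0.48 (−0.57 to 1.63) in cells with Y-linked UMIs. Levels like those of mpECs, also lower in Dach1OE, were seen in smooth muscle cells or pericytes (27.5 and 14.5 CPM), fibroblasts (22.5 and 8.49 CPM), megakaryocytes (15.2 and 7.54 CPM) and basophils (13.7 and 7.98 CPM). The part of free RNA in the mpEC value was not tested. In the Scgb3a1-led ECs Angptl4 differed by −0.45 (−1.13 to 0.32) in cells with Xist and −0.27 (−1.22 to 0.87) in cells with Y-linked UMIs. rECs had 15 and 21 UMIs, and no difference was detectable at that depth (0.31, −0.72 to 1.37).

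Lpl within ECs was lower in mpECs (51.8 and 33.2 CPM, −0.64, −0.92 to −0.37) and pECs (205 and 107 CPM, −0.94, −1.16 to −0.72), little lower in bmECs (−0.16, −0.24 to −0.08), and not detectably different in aECs (−0.35, −0.79 to 0.11) or the Scgb3a1-led ECs (0.12, −0.17 to 0.41). Chondrocytes had a like level and difference to mpECs (40.3 and 26.4 CPM, −0.61, −0.72 to −0.51), and the part of free RNA in the mpEC value was not tested. In bmECs the difference was −0.21 in cells with Xist and −0.06 (−0.20 to 0.09) in cells with Y-linked UMIs. The rEC value rested on single cells. All Control rECs had 254 Lpl UMIs, 71.3% of them in 5 cells, and without the 5 highest cells of each library the levels were 60.4 and 95.1 CPM and the ratio turned from −0.69 to 0.65 (0.23 to 1.09).

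Fabp5 did not have 1 direction over the subtypes. It was higher in Dach1OE in the Scgb3a1-led ECs (61.4 and 140.2 CPM, 1.19, 0.61 to 1.84), bmECs (62.2 and 110.0 CPM, 0.82, 0.68 to 0.96), pECs (0.45, 0.20 to 0.70) and mpECs (0.29, 0.07 to 0.51). rECs, its main endothelial site, had it lower, at 1002 and 792 CPM (−0.34, −0.46 to −0.22), but in 1 of the 2 sexes: the difference was −0.66 (−0.87 to −0.45) in cells with Xist and 0.01 (−0.27 to 0.28) in cells with Y-linked UMIs. Its interval held 0 in aECs (0.17, −0.14 to 0.49). Fabp5 was also higher in Dach1OE in chondrocytes (29.2 and 41.1 CPM, 0.50, 0.39 to 0.60) and erythroid cells (106 and 177 CPM, 0.75, 0.66 to 0.83).

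**Figure D2:**
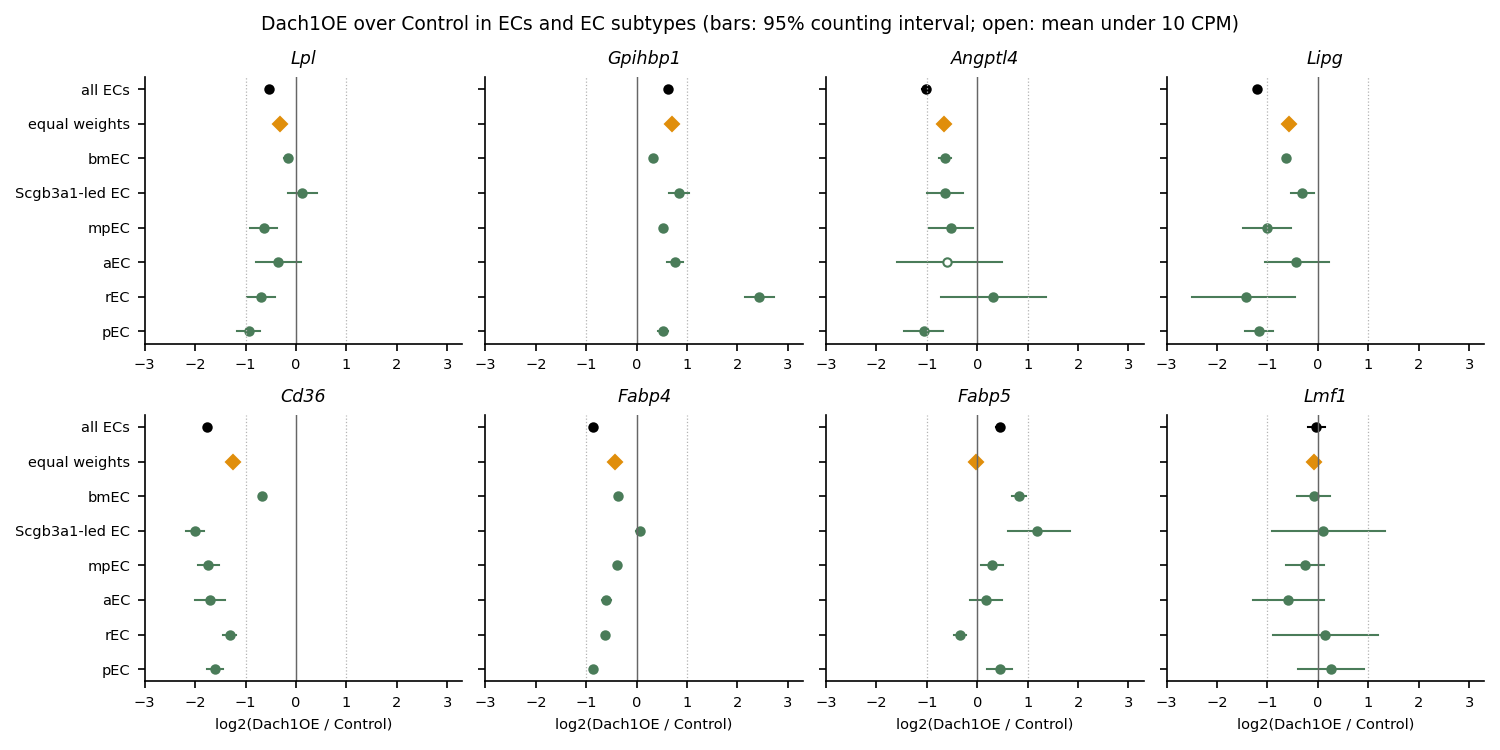
Log2 ratio of CPM (Dach1OE over Control, x axis) of each member in all ECs and in each EC subtype, with 95% conditional binomial intervals as bars, diamonds for equal weights of subtypes, an open point where the mean is under 10 CPM and lines at 0 and at 2-fold. Cd36 and Lipg lie left of 0 in all 6 subtypes, Gpihbp1 lies right of 0 in all 6 and reaches 2.43 in rECs, and Fabp5 lies on both sides.

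Over all ECs, the split by Xist or Y-linked UMIs gives a comparison of 1 mouse with 1 mouse for each sex. In ECs this used 2752 Control and 2835 Dach1OE cells with Xist, and 2123 and 2130 cells with Y-linked UMIs. Gpihbp1 was higher in Dach1OE by 0.63 in cells with Xist and 0.60 in cells with Y-linked UMIs, and Fabp5 by 0.43 and 0.54. Cd36 was lower by −1.49 and −2.05, Lipg by −0.93 and −1.46, Angptl4 by −0.97 and −1.23, Fabp4 by −0.60 and −1.15, and Lpl by −0.48 and −0.52. These 7 members had the same direction in both sexes. Lmf1, at −0.39 and 0.22, did not. The share of all genes with the same direction in both sexes was not taken. Both splits came from the same 2 libraries, and bmECs were fewer in Dach1OE in each (1661 and 585 cells with Xist, 1509 and 399 with Y-linked UMIs). The rEC difference of Gpihbp1 was 2.77 and 2.87. In pECs Cd36 differed by −0.92 (−1.19 to −0.65) in cells with Xist and −2.22 (−2.51 to −1.93) in cells with Y-linked UMIs. Fabp4 in pECs differed by −0.30 (−0.37 to −0.22) and −1.49 (−1.57 to −1.40). Sex and mouse cannot be told apart in these values.

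**Figure D3:**
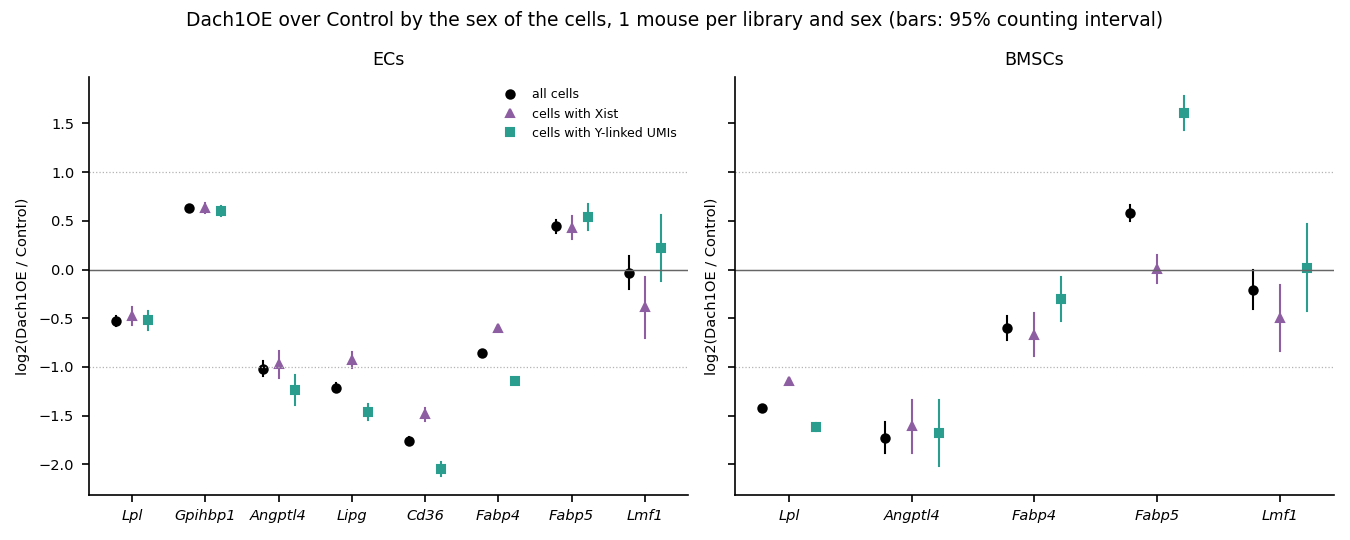
Log2 ratio of CPM (Dach1OE over Control, y axis) of the members measured in ECs (left) and BMSCs (right), for all cells, for cells with Xist and for cells with Y-linked UMIs, with exact conditional binomial intervals as bars. In ECs every member but Lmf1 lies on the same side of 0 in both sexes, and in BMSCs Fabp5 lies at 0.00 in cells with Xist and 1.61 in cells with Y-linked UMIs.

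Dach1 UMIs were not found in every EC of the Dach1OE library, so ECs with and without a Dach1 UMI were compared within it, after thinning to 1000 UMIs (1624 against 7273 cells). A cell without a Dach1 UMI may still carry the transgene. Cd36 was at 176 CPM in cells with Dach1 and 286 CPM in cells without (−0.70, −0.88 to −0.52), and Gpihbp1 at 989 and 781 CPM (0.34, 0.26 to 0.42). Fabp4 differed by −0.21 (−0.26 to −0.17) and Fabp5 by −0.22 (−0.44 to −0.00), and Lpl, at 195 and 182 CPM, did not differ detectably (0.10, −0.08 to 0.28). Lipg (0.05, −0.11 to 0.22) and Angptl4 (0.23, −0.06 to 0.51), both past 2-fold lower between the libraries, did not differ detectably either. Cd36, Gpihbp1 and Fabp4 thus differed within the library in the direction in which the libraries differed, Fabp5 differed in the other, and the intervals of Lpl, Lipg and Angptl4 held 0.

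Since cells with Dach1 also fell into other subtypes, the same was done within subtypes. In bmECs (112 against 1595 cells) Cd36 differed by −0.72 (−1.15 to −0.32) and Gpihbp1 by 0.52 (0.21 to 0.82), while Fabp4 differed by 0.01 (−0.10 to 0.11). In rECs (98 against 412 cells) Gpihbp1 differed by 1.16 (0.79 to 1.53), Fabp4 by −1.05 (−1.22 to −0.88) and Fabp5 by −1.37 (−1.94 to −0.84). Cd36 in rECs differed by 0.08 (−0.40 to 0.54). rECs with a Dach1 UMI thus had more of the anchor and less of both binding proteins than rECs without. Control rECs had Dach1 as well, at 45.7 CPM in cells with Xist and 34.9 CPM in cells with Y-linked UMIs. The Dach1OE rECs had 204 and 201 CPM, so a Dach1 UMI in a rEC need not come from the transgene. In the Scgb3a1-led cluster (773 against 2306 cells) Cd36 differed by 0.08 (−0.18 to 0.35) Gpihbp1 by 0.08 (−0.04 to 0.20) and Fabp4 by −0.05 (−0.10 to 0.00), and none of these intervals excluded 0. Lipg (0.20, 0.01 to 0.39) and Angptl4 (0.38, 0.04 to 0.71) were higher there in cells with Dach1, against the direction between the libraries.

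**Figure D4:**
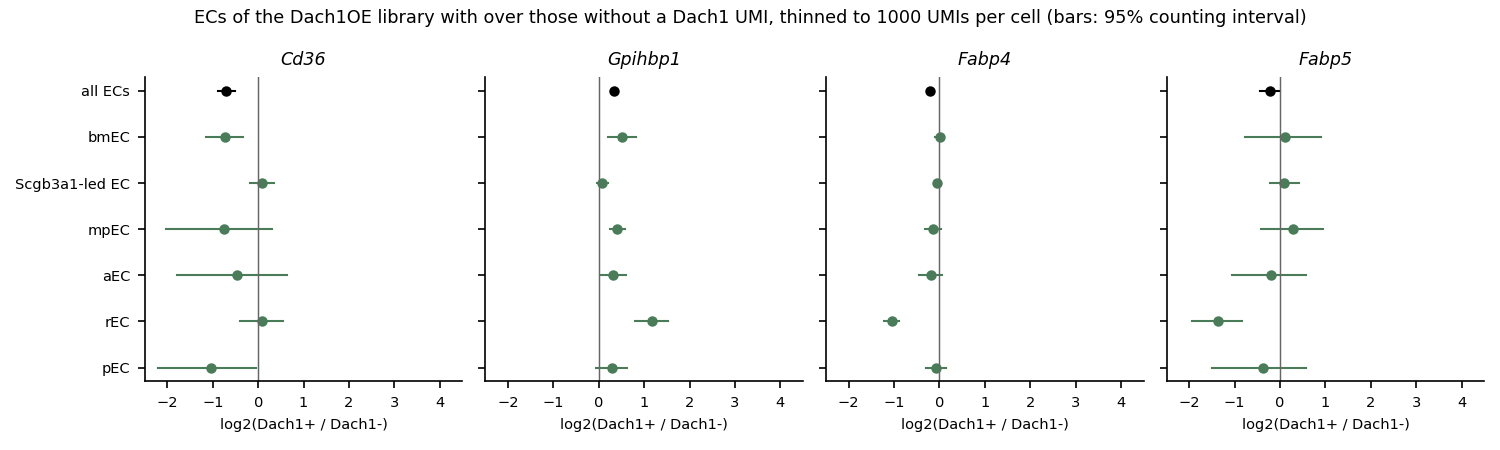
Log2 ratio (x axis) of Cd36, Gpihbp1, Fabp4 and Fabp5 in ECs of the Dach1OE library with a Dach1 UMI over those without, each cell thinned to 1000 UMIs, in all ECs and each subtype, with 95% conditional binomial intervals as bars. Cd36 stands at −0.70 and Gpihbp1 at 0.34 in all ECs, and in rECs Gpihbp1 stands at 1.16, Fabp4 at −1.05 and Fabp5 at −1.37.

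In BMSCs, Lpl and its inhibitor were lower in Dach1OE and Fabp5 was higher. Lpl was at 3852 CPM in Control and 1438 CPM in Dach1OE, 2.68-fold lower (−1.42, −1.44 to −1.40). Angptl4 was at 56.9 and 17.2 CPM (−1.73, −1.88 to −1.57), Fabp4 at 56.8 and 37.5 CPM (−0.60, −0.72 to −0.48) and Lmf1 at 18.1 and 15.7 CPM (−0.21, −0.41 to −0.01), while Fabp5 was at 77.1 and 115 CPM (0.58, 0.50 to 0.67). In 3 BMSC subtypes Fabp4, relative to ECs, was lower than the EC marker list. It stood at 0.908% and 0.921% of its EC level in mpMSCs, 0.362% and 0.425% in OBs and 0.733% and 0.420% in OCYs, where the EC marker list stood at 1.33% and 1.36%, 0.655% and 0.627%, and 0.893% and 1.14%. The part of free endothelial RNA in the BMSC value was not tested. Gpihbp1, Lipg and Cd36 had a mean under 10 CPM in BMSCs and were not counted. Of the 5 members measured, 0 were higher by 2-fold, beside 0.037% of all 8107 genes, and 2 were lower (Angptl4 and Lpl), beside 2.33%. The median of the 5, which is the Fabp4 value, was −0.60, and the median of all genes was −0.19, which scaling by trimmed means of M values moved to 0.02, so values near −0.19 are not apart from the bulk of genes, and Lmf1 was −0.01 under that scaling.

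The pooled Lpl value lay far from those within subtypes other than OCYs. Within dpMSCs, Lpl differed by −0.29 (−0.31 to −0.27), and with BMSC subtypes at equal weights by −0.15. dpMSCs contributed 28.1% of Control and 11.5% of Dach1OE BMSC UMIs. In mpMSCs Lpl was at 249 and 191 CPM (−0.38, −0.54 to −0.23), in pBMSCs at 729 and 728 CPM (−0.00, −0.17 to 0.17), and in OBs at 12.2 and 12.5 CPM (0.04, −0.29 to 0.37). In pBMSCs 5 cells held 56.4% and 72.7% of the Lpl UMIs, and without them the levels were 331 and 212 CPM and the ratio −0.64 (−0.94 to −0.35). In OCYs it was at 45.4 and 20.6 CPM (−1.14, −1.84 to −0.47), on 54 and 30 UMIs of which 5 cells held 83.3% and 76.7%. That was 0.344% and 0.191% of the dpMSC level, below the adipocyte list at 0.834% and 0.228%. At equal weights 0 members were past 2-fold in BMSCs, beside 0.103% of all genes higher and 0.0686% lower, so few genes of any kind were.

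Angptl4 stood lower within subtypes too, in mpMSCs by −1.82 (66.2 and 18.7 CPM, −2.26 to −1.40), in SCs by −1.26 (−1.76 to −0.76) and in dpMSCs by −0.55 (−0.76 to −0.35). At equal weights of subtypes it was −0.95. Of the members with an interval below 0 in all BMSCs, it was the one furthest from 0 at equal weights.

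Fabp4 in dpMSCs was 80.4 and 115 CPM (0.51, 0.31 to 0.71), against the lower pooled level. Of the 329 Dach1OE UMIs 124 (37.7%) were in 1 cell, and without the 5 highest cells of each library the levels were 72.8 and 57.2 CPM (−0.35, −0.61 to −0.09). In cells with Xist it differed by −0.33 (−0.75 to 0.07) and in cells with Y-linked UMIs by 2.05 (1.67 to 2.44). In dpMSCs Fabp4 stood at 1.13% and 2.92% of its EC level, beside 1.48% and 1.61% for the EC marker list, and the part of free endothelial RNA in it was not tested. Lmf1 in dpMSCs was 26.3 and 14.3 CPM (−0.88, −1.41 to −0.39), on 182 and 41 UMIs.

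In SCs Lpl and Fabp5 were both higher in Dach1OE, Lpl by 0.58 (1814 and 2704 CPM, 0.49 to 0.66) and Fabp5 by 0.36 (1102 and 1413 CPM, 0.25 to 0.47). The pair of mice of each pool did not share this. In SCs with Xist (96 Control and 60 Dach1OE cells) Lpl was at 2235 and 1642 CPM (−0.45, −0.61 to −0.28) and Fabp5 at 1521 and 1298 CPM (−0.23, −0.42 to −0.04). In SCs with Y-linked UMIs (39 and 108 cells) Lpl was at 1069 and 2822 CPM (1.40, 1.19 to 1.62) and Fabp5 at 749.6 and 2141 CPM (1.51, 1.27 to 1.77). Both genes were higher in the Control cells with Xist than in those with Y-linked UMIs, and lower in the Dach1OE ones. Over all BMSCs, Lpl differed by −1.14 in cells with Xist and −1.62 in cells with Y-linked UMIs, and Angptl4 by −1.61 and −1.67, the same direction in both. Fabp5 differed by 0.00 (−0.14 to 0.15) and 1.61 (1.43 to 1.78), so the higher level was seen in 1 of the 2 sexes. These used 2236 and 1430 BMSCs with Xist and 987 and 1056 with Y-linked UMIs. In pBMSCs Fabp5 was at 121 and 294 CPM (1.29, 0.94 to 1.64).

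**Figure D5:**
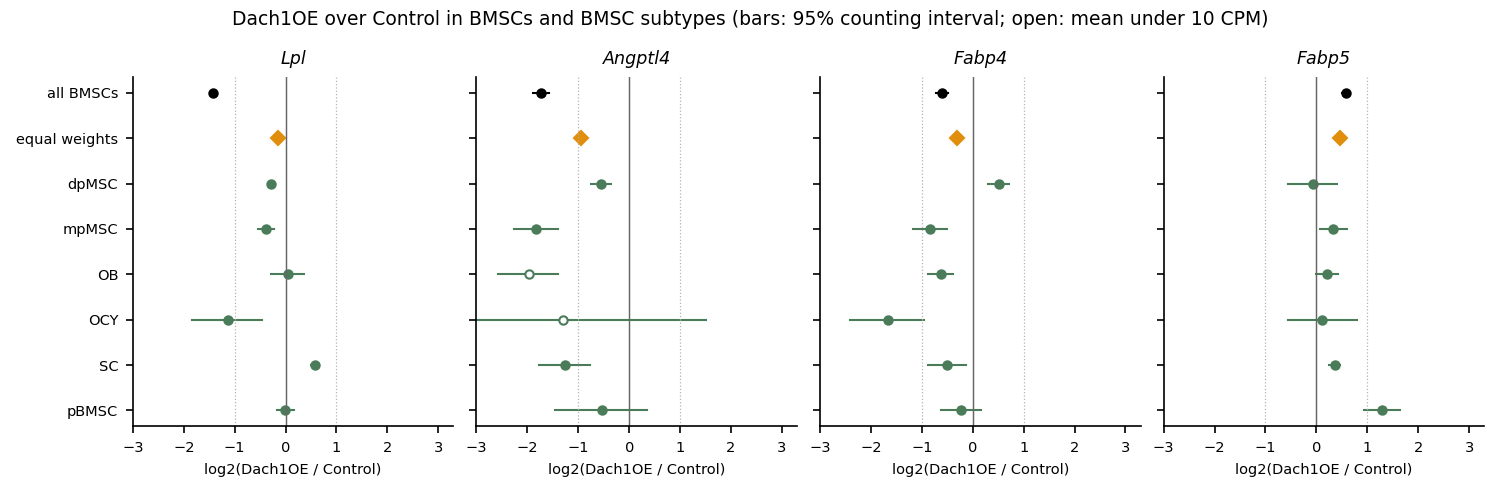
Log2 ratio of CPM (Dach1OE over Control, x axis) of Lpl, Angptl4, Fabp4 and Fabp5 in all BMSCs and in each BMSC subtype, with 95% conditional binomial intervals as bars, diamonds for equal weights of subtypes, open points where the mean is under 10 CPM and lines at 0 and at 2-fold. Lpl stands at −1.42 in all BMSCs but at −0.29 in dpMSCs and 0.58 in SCs, and Angptl4 stands left of 0 in dpMSCs, mpMSCs and SCs, with an OCY interval that runs past the axis to −4.76.

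The rest of the pathway was read as 6 lists of 74 genes, of which 73 were in the tables. In ECs 41 were measured, 5 were higher and 1 lower by 2-fold, beside 1.93% and 1.47% of all genes, and their median was −0.05 beside 0.03. Of the 5 higher genes, Sdc1, Tcf15 and Lipe were under the limit for measured genes in Control and entered through their Dach1OE level. The limit on the mean of both libraries was the same for all genes. In BMSCs 43 were measured, 0 were higher and 2 lower, beside 0.037% and 2.33% of all genes, with a median of −0.28 beside −0.19. Among the intravascular lipolysis genes, 2 of 7 were higher in ECs and 1 lower: Pcsk6, a proprotein convertase that cuts LPL and endothelial lipase, was at 17.5 and 72.4 CPM (2.04), Sdc1, a heparan sulphate proteoglycan, at 5.47 and 14.9 CPM (1.44), and Apoe at 849.7 and 365 CPM (−1.22). Apoe was lower in BMSCs as well, at 725 and 315 CPM (−1.20), the one of 8 in that list past 2-fold. It was highest in dpMSCs, at 2373 and 2323 CPM.

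Of the list of regulators of endothelial fatty acid transport (transcription factors and the growth factor Vegfb), 1 of 6 measured was past 2-fold in ECs. Tcf15, a partner of Meox2 in heart endothelium, was at 5.26 and 37.2 CPM (2.82). Meox2 itself was highest in rECs, at 268.5 and 155.1 CPM. In BMSCs Pparg, the adipogenic nuclear receptor, was at 82.1 and 33.4 CPM (−1.30), the one of 4 past 2-fold. It was highest in bmECs, at 744.5 and 610.0 CPM.

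Of 9 measured genes of triglyceride storage and release, 2 were higher in ECs, Mgll (monoglyceride lipase) at 74.1 and 180 CPM (1.28) and Lipe (hormone-sensitive lipase) at 8.81 and 18.2 CPM (1.05). Both were highest in rECs, where Mgll was at 408 and 499 CPM and Lipe, lower in Dach1OE there, at 56.1 and 43.1 CPM. None of 9 was past 2-fold in BMSCs. Lipoprotein receptors (3 measured in ECs and 4 in BMSCs), fatty acid transport, activation and binding genes (7 and 7) and fatty acid oxidation (9 and 11) had 0 genes past 2-fold in either class, with medians between −0.32 and 0.08. The 7 transport, activation and binding genes measured in ECs were Slc27a1, Slc27a4, Acsl1, Acsl3, Acsl4, Acsl5 and Got2, with a median of 0.08 (Acsl3). Beside the lower Cd36 and Fabp4, the transporter Slc27a1 stood at −0.00 (−0.22 to 0.22) and Slc27a4 at −0.35 (−0.54 to −0.15).

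Likeness was measured as Pearson's r of log2(CPM + 10) over 36 points, 18 cell types in each of 2 libraries. It was taken among the 7926 genes that reached 50 CPM in at least 1 cell type. The points share libraries and free RNA and carry no test. Cd36 and Fabp4 were among each other's 3 most alike genes, at 0.96. Lpl was most like Id4 (0.890), Gpihbp1 like the endothelial cadherin Cdh5 (0.977), Angptl4 like Vcam1 (0.921), Lipg like Ubd (0.978) with the sinusoidal receptor Stab2 next (0.955), and Fabp4 like Lrg1 (0.964). Fabp5 (Hipk1, 0.742) and Lmf1 (Ddx50, 0.833) had no gene as close, but Lmf1 itself stayed under 50 CPM in each of the 18 cell types. Among the members Lpl stood at 0.67 with its inhibitor Angptl4 and −0.15 with its anchor Gpihbp1.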

How the data were processed

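The deposited tables hold counts per cell and gene, which the authors obtained from the pipeline of the BD Rhapsody WTA kit. Its version per the file headers was 1.11 (the methods state another), on GRCm38 with GENCODE vM19. Per the labels' processing notes the build was mm10. UMIs after the pipeline's error correction (RSEC) were used, with introns counted, so the depth of a level includes unspliced RNA. Cells were filtered as stated, clustered in Seurat 5.3.0 (R 4.3.3) without the members, the pathway genes and 97 cell cycle genes, and named by at least 3 markers. Clusters with over 50% Scrublet calls (scanpy 1.11.5) were set aside (1337 Control and 1412 Dach1OE cells), as were EC subclusters led by another class (330 and 242 cells) and BMSC ones (340 and 323), and no other doublets were removed. EC subcluster 8 (94 and 251 cells), led by Pgf and Nos2, was counted with mpECs. UMIs were summed per library and cell type and compared as CPM ratios with conditional binomial intervals (Python 3.11.15, scipy 1.17.1), tested on simulated data. The simulated counts were Poisson counts, as the intervals assume, so the clumping of UMIs in single cells was not covered. Where a count was 0, 3 counts stood for it. Subtypes needed 50 cells in each library and sex splits 20. Named were all members, pathway genes past 2-fold (at most 5 per list), the 3 most alike genes and Dach1, and genes leading an unnamed cluster. Adipocyte markers, Adipoq among them, and the genes highest in a cell type were chosen after their values were seen. The members and lists were chosen with earlier results of these data known. RefSeq supplied the promoter (GRCm38.p6) and GENCODE vM21 on GRCm38 the positions and coding sequences. Alternatives included edgeR 4.0.16 scaling.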

Additional observations from a re-analysis of the deposited data

Results flagged for a closer look

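Some members had opposite directions between subtypes or between the sexes, with intervals on either side of 0; none of these differences was itself tested. Fabp5 had a log2 ratio of 1.19 in the Scgb3a1-led ECs and −0.34 in rECs, with 4 EC subtypes higher and 1 lower. The rEC value was −0.66 in cells with Xist and 0.01 (−0.27 to 0.28) in cells with Y-linked UMIs. Among BMSC subtypes, Lpl was 0.58 in SCs and −1.14 in OCYs (1 subtype higher, 3 lower), and Fabp4 was 0.51 in dpMSCs and −1.66 in OCYs (1 higher, 4 lower), where single cells hold much of the OCY Lpl and of the dpMSC Fabp4. Both OCY levels, relative to the main cell type of the gene, were below the marker list of that cell type: Lpl stood at 0.344% and 0.191% of its dpMSC level (adipocyte list 0.834% and 0.228%), and Fabp4 at 0.733% and 0.420% of its EC level (EC list 0.893% and 1.14%). Split into Xist-bearing and Y-linked-UMI cells, Lpl in SCs was −0.45 and 1.40, and Fabp5 in SCs −0.23 and 1.51. Fabp4 was 0.20 and −0.19 in the Scgb3a1-led ECs, and 1.57 and −2.41 in pBMSCs. Each sex is 1 mouse per library, so sex and mouse cannot be told apart.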

How the results depend on the processing

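No paired analysis was possible because each group is 1 library without replicate numbers. The count of members past 2-fold in ECs (3) was 1 at equal weights of subtypes, 1 with cells named by marker level at equal weights, 1 in cells with Xist, 4 in cells with Y-linked UMIs and 5 without the Scgb3a1-led cluster, where the share of all genes lower ran from 1.15% to 1.95%. In BMSCs (2) it was 0 under both equal weightings (0.0686% and 0.137% of all genes lower), 1 from a mean of 50 CPM (3.198%), 3 with no filter on low counts (14.0%), and 3 in cells with Y-linked UMIs, of which 2 were lower (3.17%) and Fabp5 was higher (0.223%). The median in ECs (−0.69) moved to −0.66 under 10% mitochondrial UMIs, −0.37 and −0.44 under the equal weightings, −0.54 in cells with Xist, −0.84 in cells with Y-linked UMIs, −0.86 from 50 CPM, −0.86 in cells with at least 4000 UMIs and −1.07 without that cluster. The median in BMSCs (−0.60) moved to −0.40 under either scaling (TMM, median of ratios), −0.78 under 10% mitochondrial UMIs, −0.24 and −0.16 under the equal weightings, −0.30 in cells with Y-linked UMIs, −0.84 without Scrublet calls, −0.78 with no filter on low counts, −0.42 from 50 CPM and −0.46 in cells with at least 4000 UMIs. Reversed were Fabp5 in ECs under the equal weightings (−0.021 and −0.21) and Lmf1 in BMSCs at equal weights (0.050), in cells with Y-linked UMIs (0.020) and from 4000 UMIs (0.021). Beyond fewer cells or genes entering, the cause was not tested. Across the 14 alternatives Cd36 in ECs ran from −2.05 to −1.26 and Gpihbp1 from 0.48 to 0.73. Leaving out that cluster and the 4000-UMI minimum were chosen after seeing the data. With 1 library per group, the spread between mice is unknown.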

Other observations

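Among cell types outside both classes, megakaryocytes had lower Cd36 in Dach1OE, at 112 CPM in Control and 18.9 CPM in Dach1OE (−2.57, −3.02 to −2.14), and lower Lipg, at 74.6 and 18.1 CPM (−2.04, −2.52 to −1.59). Their summed EC markers were at 1667 and 1634 CPM, or 19.1% and 17.8% of the EC level, above Cd36 at 12.9% and 7.36% and Lipg at 15.8% and 8.91%. The part of endothelial RNA in these values was not tested. Cd36 was lower in the other types outside both classes too. It was at 237 and 114 CPM in smooth muscle cells or pericytes, 46.6 and 29.8 CPM in fibroblasts and 43.0 and 20.2 CPM in erythroid cells. Basophils had 43.6 and 16.0 CPM of Cd36 and chondrocytes 10.7 and 3.92 CPM. Basophils had Lpl at 206 and 90.0 CPM (−1.19, −1.32 to −1.06), which was 1.56% and 0.836% of the dpMSC level, near the adipocyte list at 1.33% and 0.666%, and 5 cells held 33.4% and 42.3% of it.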
